A study of Mus musculus with 58 samples.

Results

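The libraries described here are 17 of the 58 in the series and were chosen by their labels alone: 9 from old livers with the mApple control vector and ruxolitinib, and 8 from old livers with the same vector and vehicle. All 17 come from whole livers of male C57BL6/J mice injected with AAV8-TBG-mApple, an adeno-associated virus in which the hepatocyte promoter TBG drives a red fluorescent protein, so none carries added Myc. Gavage with ruxolitinib (45 mg/kg, 2 times daily) ran for 30 days, with weekends left out, and vehicle was given on the same schedule. Of the ruxolitinib mice, 4 were 25 months old and sequenced in the first batch, and 5 were 24 months old and sequenced in the second batch. Of the vehicle mice, 4 were 25 months old in the first batch and 4 were 24 months old in the second batch, so age among these mice and sequencing batch cannot be told apart. Old Myc livers (14 with ruxolitinib and 11 with vehicle) and young mApple vehicle livers (6, aged 4 months, second batch only) are used for comparison. Of the old Myc mice with ruxolitinib, 4 were 25 months old (first batch) and 10 were 24 months old (second batch). With vehicle these were 6 and 5, so drug and batch are not balanced there. Dose and schedule were the same as in the mApple groups. Each library stands as its own sample in the labels, and p-values measure the spread between these samples. The question is what inhibition of JAK1 and JAK2 changes in the aged liver across all genes.

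JAK1 and JAK2 are kinases bound to the inner side of cytokine receptors. Type I interferon acts through JAK1 and TYK2 on a complex that holds STAT2 and IRF9 and binds the interferon-stimulated response element of its targets, while interferon gamma acts through JAK1 and JAK2 and leads to binding at gamma-activated sites. In hepatocytes the same kinases carry interleukin 6 through IL6ST to STAT3, which drives the acute phase response, and growth hormone through JAK2 to STAT5, which sustains Igf1 and the male pattern of liver genes. Ruxolitinib blocks the catalytic site of JAK1 and JAK2.

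Depth was 11.5 to 23.6 M exon counts in ruxolitinib libraries and 12.1 to 18.5 M in vehicle libraries. Albumin (Alb), the main secreted hepatocyte protein, had 30140 to 146800 counts per M (CPM; median 134500) with ruxolitinib and 95603 to 183780 (median 136710) with vehicle. The lowest Alb value belongs to ruxolitinib library 864, which also had the highest neutrophil list level (5.18, against 0.564 to 1.01 in the other ruxolitinib libraries and 0.712 to 1.41 with vehicle; a level is the mean log2(CPM + 1) of a list). In that library the acute phase gene Saa1 had 9407 CPM, and in vehicle library 1137 it had 2098 CPM, while the group medians were 32.8 CPM with ruxolitinib and 33.0 CPM with vehicle. In whole tissue, fewer cells of a type and less RNA per cell cannot be told apart.

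Short upstream windows of 6 genes that were lower with ruxolitinib are printed first; they were picked for holding a match to the sequence that the interferon complex binds. Each is 80 bases, read 5′ to 3′ on the strand of the gene from RefSeq (GRCm38.p6). Capitals mark matches, on either strand, of the core of the interferon-stimulated response element (GAAA, any 2 bases, GAAA) or of TTCNNNGAA, the gamma-activated site. The windows lie at chr19:34640760-34640839 (plus strand) for Ifit1, chr19:34583355-34583434 (plus strand) for Ifit3, chr12:26456528-26456607 (minus strand) for Rsad2, chr11:58214873-58214952 (plus strand) for Irgm2, chr5:92349058-92349137 (minus strand) for Cxcl10 and chr10:128270248-128270327 (plus strand) for Stat2.
Ifit1: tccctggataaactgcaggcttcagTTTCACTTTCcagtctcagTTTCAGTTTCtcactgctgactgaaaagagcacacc
Ifit3: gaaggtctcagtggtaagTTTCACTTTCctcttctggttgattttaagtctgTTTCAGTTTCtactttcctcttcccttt
Rsad2: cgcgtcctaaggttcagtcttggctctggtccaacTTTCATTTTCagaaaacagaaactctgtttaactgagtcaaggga
Irgm2: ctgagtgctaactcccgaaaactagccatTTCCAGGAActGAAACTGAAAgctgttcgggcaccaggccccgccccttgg
Cxcl10: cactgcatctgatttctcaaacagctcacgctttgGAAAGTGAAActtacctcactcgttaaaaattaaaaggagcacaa
Stat2: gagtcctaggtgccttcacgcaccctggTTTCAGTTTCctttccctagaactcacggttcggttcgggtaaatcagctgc
Of the 52 genes lower with ruxolitinib, 40 had a promoter (250 bases before to 50 bases after the start) in the RefSeq table. The response element core was found in 15 of these 40 (37.5%), against 411 of the 10430 tested genes with a promoter (3.94%) and 1131 of 32851 starts in the table (3.44%). It was in 12 of 21 lower genes of the interferon lists (57.1%). Among tested genes of the type I interferon list with a promoter, lower or not, it was in 22 of 46 (47.8%). It was also in 3 of 19 lower genes outside the interferon lists (15.8%), namely Gm12250, Ifi208 and Trim21. A gene outside these lists can still be an interferon target, and this was not tested. The gamma-activated site was in 5 of the 40 (12.5%), against 8.52% of tested genes. A match describes these letters and is not a measured binding site.

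Ruxolitinib lowered 52 genes and raised 1 in the old mApple liver, and 30 of these 53 genes are on the 2 interferon lists (type I targets and interferon gamma GTPases). The lists hold 63 and 28 of the 13554 tested genes, of which 25 and 5 were called. They were chosen with earlier results of these data known. Of 13554 genes tested, 53 passed an adjusted p of 0.05 (edgeR quasi-likelihood with batch as a term, Benjamini-Hochberg over all tested genes). These are 0.391% of the genes tested, with 0.384% lower and 0.00738% higher. At unadjusted p under 0.05 the directions were near balance, with 5.17% of genes lower and 4.62% higher, and the median over all genes was 0.01 (log2). Those shares are the background for the counts of list members at that p given below. All 53 had the same sign in each batch alone, but a fit to these same libraries picked them, so this is no separate support. In 15 genes every ruxolitinib library lay below every vehicle library, which was 0.111% of the genes tested, all 15 of them among the 53. Within each batch taken alone this held for 29 genes (0.214%), 24 of them among the 53, and 6 genes (0.0443%) were without overlap in the higher direction within each batch.

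**Figure D1:**
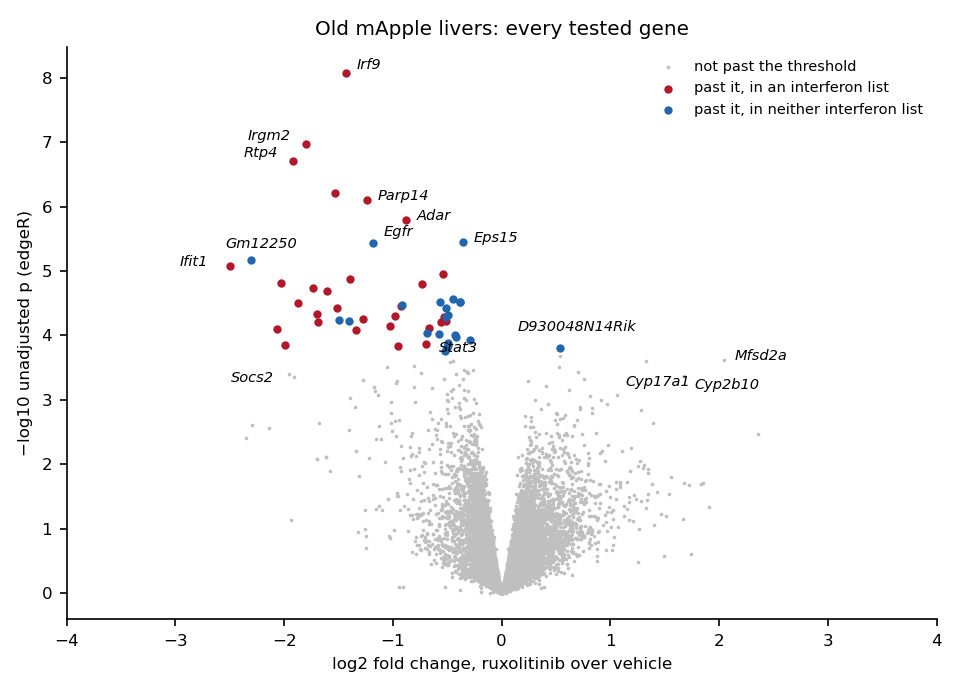
Each point is a tested gene, with the log2 fold change of ruxolitinib over vehicle on the x axis and −log10 of the unadjusted edgeR p on the y axis. Red and blue points are the 53 genes past an adjusted p of 0.05, of which 30 are in an interferon list and 23 in neither, and 52 of the 53 lie on the left.

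Irf9 (chr14:55603985-55610030, mm10) encodes the DNA-binding part of the complex that type I interferon assembles, and it had the smallest p of all genes. Its values were 10.3 to 19.97 CPM with ruxolitinib (median 14.2) and 30.5 to 53.3 CPM with vehicle (median 44.1), a log2 fold change of -1.43 ± 0.14 (SE; edgeR adjusted p = 1.14e-04). Even the highest ruxolitinib library stood below the lowest vehicle library. Stat2, its partner, spanned 53.3 to 73.3 CPM (median 58.3) with ruxolitinib and 66.8 to 113 CPM (median 90.3) with vehicle, and the groups overlapped when batches were pooled but not within either batch.

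Effectors downstream fell too. Rtp4, a receptor chaperone induced by interferon, had 4.99 to 9.41 CPM (median 5.88) with ruxolitinib and 11.3 to 38.6 CPM (median 31.6) with vehicle. Ifit1, whose protein binds foreign RNA caps, had 1.30 to 6.33 CPM (median 3.08) with ruxolitinib and 2.53 to 37.4 CPM (median 18.96) with vehicle. Rtp4 did not overlap between the groups, whereas Ifit1 did, through vehicle library 1137. The log2 fold change was -1.91 ± 0.23 for Rtp4 and -2.4999 ± 0.40 for Ifit1 (edgeR adjusted p = 0.000900 and 0.0115). Rsad2, which makes an antiviral nucleotide, spanned 1.96 to 8.55 CPM (median 2.98) with ruxolitinib and 4.67 to 47.7 CPM (median 13.5) with vehicle, and its call was lost in 14 of the 17 fits that leave out 1 library. Ifit3b, a close paralog of Ifit3 that can share its reads, spanned 1.05 to 3.58 CPM (median 1.998) with ruxolitinib and 1.87 to 17.9 CPM (median 9.91) with vehicle. Both overlapped between the groups. Mx1, an antiviral GTPase, was low in all libraries, at 0.186 to 1.49 CPM (median 0.745) with ruxolitinib and 0.734 to 7.03 CPM (median 3.08) with vehicle. Parp14, an ADP-ribosyltransferase, spanned 13.4 to 25.1 CPM (median 18.1) with ruxolitinib and 31.9 to 72.0 CPM (median 39.3) with vehicle, without overlap. Its log2 fold change was -1.24 ± 0.17 (edgeR adjusted p = 0.00211). Adar, which edits adenosine to inosine in double-stranded RNA, spanned 15.9 to 21.0 CPM (median 18.2) with ruxolitinib and 26.3 to 53.3 CPM (median 30.8) with vehicle, also without overlap (-0.88 ± 0.13, edgeR adjusted p = 0.00366). Mx2, the paralog of Mx1, had a median of 2.72 CPM (1.62 to 4.04) with ruxolitinib and 6.87 CPM (5.10 to 18.3) with vehicle, and Oas1b, of the oligoadenylate synthetase family, one of 0.997 CPM (0.749 to 1.38) with ruxolitinib and 2.45 CPM (1.60 to 5.59) with vehicle. Neither Mx2 (-1.53 ± 0.20, edgeR adjusted p = 0.00211) nor Oas1b (-1.40 ± 0.23, 0.0152) overlapped.

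Further genes of the type I interferon list were also among the 53. Ddx58, which encodes the RNA sensor RIG-I, was at -0.66 ± 0.13 (edgeR adjusted p = 0.0272), Eif2ak2, the kinase PKR, at -0.70 ± 0.14 (0.0394) and Znfx1, a helicase, at -0.73 ± 0.13 (0.0155). Trim25, the ubiquitin ligase that acts on RIG-I, fell by 0.51 ± 0.10 (0.0237) and Dtx3l, a ubiquitin ligase that pairs with Parp9, by 0.54 ± 0.09 (0.0137). Dtx3l and Parp9 overlap at their ends on opposite strands, and the counting used no strand, so part of their reads cannot be told apart. Cmpk2, a mitochondrial nucleotide kinase near Rsad2, had 2.69 to 8.45 CPM (median 3.47) with ruxolitinib and 7.20 to 32.4 CPM (median 12.97) with vehicle, at -1.73 ± 0.30 (edgeR adjusted p = 0.0163). The RNA sensor Tlr3, on another list, did not pass (-0.30, edgeR adjusted p = 0.391). The calls of Ddx58 and Eif2ak2 rest on several libraries each: they were lost in 9 and 13 of the 17 fits that leave out 1 library.

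Of 63 genes on the type I interferon list, 25 fell, none rose, and 62 had a negative fold change, beside 6458 of all 13554 genes tested. At unadjusted p under 0.05 the list had 50 lower genes, beside 5.17% of all genes. Its median log2 fold change was -0.74, beside 0.01 for all genes tested, -0.59 within the first batch and -1.07 within the second. The level of the list was 2.98 to 3.87 (median 3.43) with ruxolitinib and 3.71 to 4.93 (median 4.23) with vehicle. Within the first batch the groups were apart, at 3.43 to 3.87 with ruxolitinib and 4.22 to 4.36 with vehicle. In the second batch, ruxolitinib library 1140 (3.80) reached into the vehicle range, while the other ruxolitinib libraries lay at or below 3.13. Vehicle library 1136 had the highest level (4.93) together with the highest Kupffer and macrophage level of the vehicle libraries (4.80, with the others at 3.71 to 4.49). Of the 28 Kupffer and macrophage genes 0 passed in edgeR (1 lower and 0 higher at unadjusted p under 0.05, 0 by DESeq2 and 0 by voom), and their part in the interferon result was not tested. The median of these 28 genes was 0.59 within the first batch and -0.48 within the second. Their level in the second batch was 3.29 to 4.45 (median 3.53) with ruxolitinib and 3.71 to 4.80 (median 4.12) with vehicle, and in the first batch it was 4.10 to 5.33 (median 4.68) with ruxolitinib and 3.88 to 4.49 (median 4.30) with vehicle. Without 1136 the list median was -0.49 and 24 genes fell. The list kept 14 lower genes without 856, 1139 or 1142, 16 without 863, and 17 without 865 or 1141. Without 864 and 865 it had 15, and without 864 and 1137 it had 24. With library totals in place of TMM scaling 5 of its genes fell, at a median of -0.63 where all genes had 0.11.

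**Figure D2:**
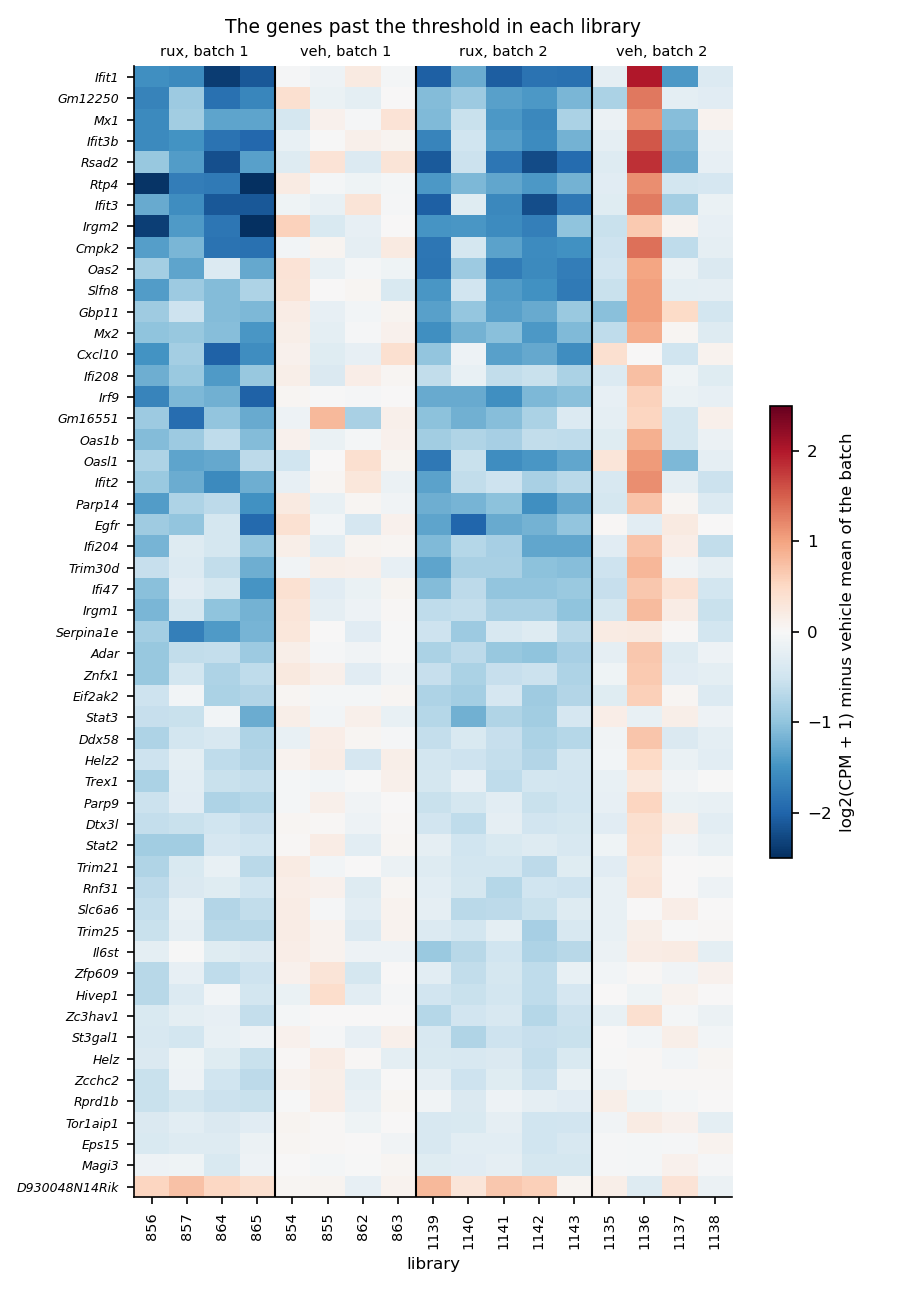
Colour shows log2(CPM + 1) of each of the 53 genes past the threshold minus the vehicle mean of its batch, with ruxolitinib libraries left of vehicle libraries in each batch and genes sorted by fold change. Ruxolitinib columns are blue for most genes, and vehicle library 1136 is red for most of the interferon genes at the top.

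The list of interferon gamma GTPases and related genes, whose GTPases attack the vacuoles of intracellular microbes and are induced by interferon gamma, gave 5 lower genes of 28, none higher, with a median of -0.73. Irgm2 (chr11:58214977-58222783) had 14.98 to 36.7 CPM (median 25.7) with ruxolitinib and 50.01 to 149 CPM (median 82.8) with vehicle. The groups of Irgm2 did not overlap (-1.80 ± 0.21, edgeR adjusted p = 0.000731). Its relative Irgm1 had 26.3 to 44.6 CPM (median 32.2) with ruxolitinib and 39.0 to 100 CPM (median 59.5) with vehicle, and lost its call without 856. Gm12250, which carries a predicted-gene name, lies near Irgm2 and is not on the interferon lists. It had 0.372 to 1.98 CPM (median 0.754) with ruxolitinib and 1.14 to 8.30 CPM (median 3.89) with vehicle (-2.31 ± 0.37, edgeR adjusted p = 0.0102). Cxcl10, a chemokine that draws T cells, had a median of 2.12 CPM (1.27 to 5.12) with ruxolitinib and 6.72 CPM (3.74 to 11.1) with vehicle, and lost its call without 856. Its span lies within that of Art3 on the other strand, which was at -0.28. Members of the list that did not pass include Igtp at -1.13 ± 0.32 (edgeR adjusted p = 0.212), with 13.8 to 71.7 CPM under ruxolitinib and 20.5 to 103 CPM under vehicle, and Gbp5 at -0.82 ± 0.24 (0.241). The whole span of Ifi47 lies within Olfr56 on the same strand, so its value (-0.95 ± 0.20) is uncertain. The list gave 2 lower genes without 856, 8 without 857, 2 without 864 and 865, and 4 without 864 and 1137.

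Antigen presentation genes did not pass in edgeR. Of 22 class I genes 0 passed, with 1 lower by DESeq2, 0 by voom and a median of -0.18. At unadjusted p under 0.05, 4 were lower and 0 higher, beside 5.17% and 4.62% of all genes. Tap1, the peptide transporter, was at -0.51 ± 0.15 (edgeR adjusted p = 0.214), and B2m, the light chain of class I molecules, at -0.30 ± 0.14 (0.504). Of 11 class II genes 0 passed in edgeR, DESeq2 or voom, with 0 lower and 2 higher at unadjusted p under 0.05 and a median of 0.42, which was 0.69 within the first batch, 0.17 within the second and 0.245 without 1140.

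Genes outside the interferon lists, which may still include interferon targets, were among the 53 too. Trex1, a DNA exonuclease, was at -0.57 ± 0.10 (edgeR adjusted p = 0.0203), Zc3hav1, the zinc-finger antiviral protein, at -0.49 ± 0.09 (0.0236) and Trim21, a cytosolic antibody receptor, at -0.52 ± 0.11 (0.0448). Zc3hav1 had 34.7 to 45.8 CPM (median 40.6) with ruxolitinib and 51.1 to 77.1 CPM (median 53.4) with vehicle, without overlap. Rnf31, which builds linear ubiquitin chains and lies next to Irf9, was at -0.52 ± 0.09 (0.0203) and lost its call without 856. Trim21 lost its call in 15 of the 17 fits that leave out 1 library.

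Most genes of the signalling machinery did not pass. Of 11 JAK and STAT genes 2 fell, Stat2 and Stat3, and neither call held without 854 or without 856. Stat2 also lost its call without 863, and Stat3 without 1135, 1137, 1138, 1139, 1140, 1141, 1142 or 862. Stat3 (chr11:100886806-100939540), which carries the interleukin 6 signal, spanned 70.0 to 175 CPM (median 128) with ruxolitinib and 146 to 265 CPM (median 196) with vehicle, at -0.69 ± 0.14 (edgeR adjusted p = 0.0303). Il6st, the receptor chain shared by the interleukin 6 family, spanned 79.0 to 144 CPM (median 106) with ruxolitinib and 93.3 to 232 CPM (median 143) with vehicle. Vehicle levels of both genes were higher in the second batch, and the groups overlapped when batches were pooled. The Stat3 call was lost in 10 and that of Il6st in 13 of the 17 fits that leave out 1 library. The drug's targets Jak1 (-0.20 ± 0.08, edgeR adjusted p = 0.425) and Jak2 (-0.13 ± 0.10, 0.691) did not pass, nor did Tyk2 (0.05 ± 0.07), Stat5a (0.23 ± 0.11) and Stat5b (-0.01 ± 0.12). Lifr, the leukaemia inhibitory factor receptor that pairs with Il6st, was at -0.37 ± 0.11 (0.260).

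**Figure D3:**
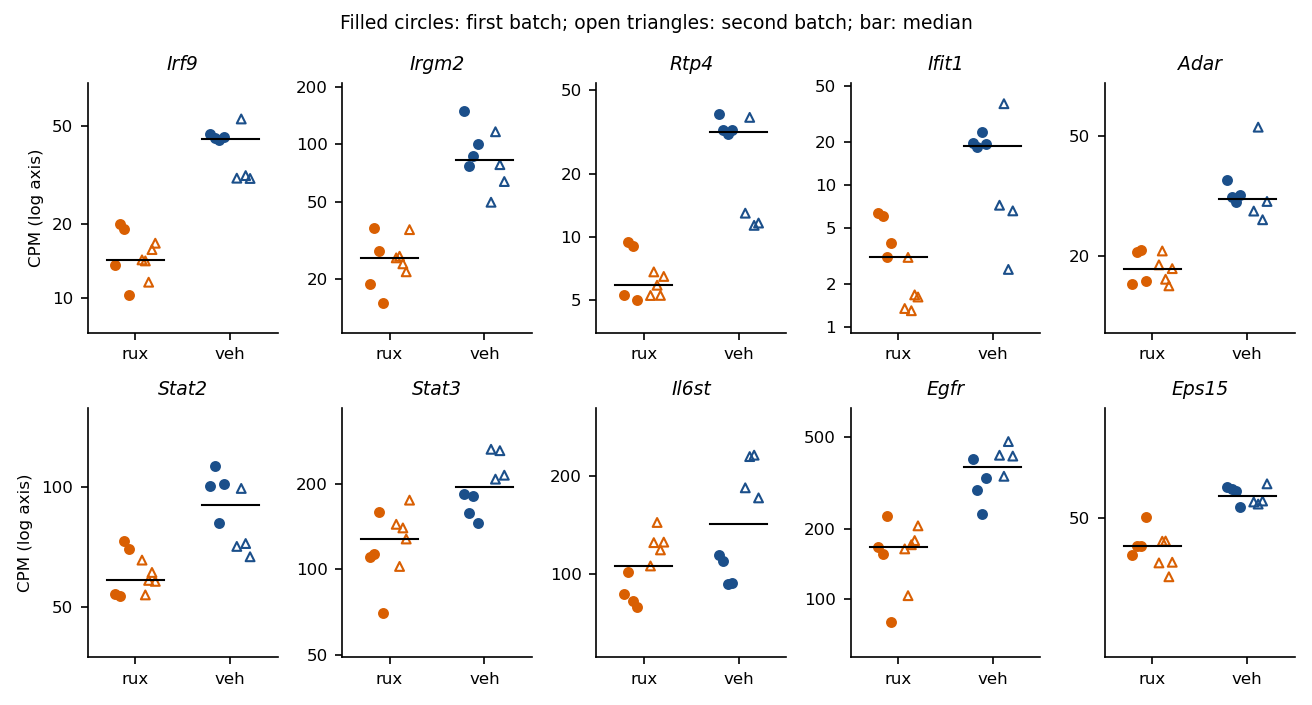
CPM on log axes of 10 genes past the threshold, ruxolitinib left of vehicle, with filled circles for the first batch, open triangles for the second batch and a bar at the median. Irf9, Irgm2, Rtp4, Adar, Egfr and Eps15 do not overlap between the groups, while Ifit1, Stat2, Stat3 and Il6st do.

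Feedback inhibitors of the pathway did not pass in edgeR. Of the 21 genes listed 14 had a negative fold change, beside 6458 of all 13554 genes tested. The list median was -0.16 (-0.08 without 864 and 1137 and also without 1140). Socs2, a STAT5 target that limits growth hormone signalling, had 1.54 to 19.1 CPM (median 4.47) with ruxolitinib and 8.27 to 45.4 CPM (median 23.3) with vehicle. Its log2 fold change was -1.95 ± 0.45 with an edgeR adjusted p of 0.0777, and in each batch alone it was -1.91 in the first and -1.998 in the second. Only library 1143 (19.1 CPM) among the ruxolitinib libraries entered the vehicle range. Cish, another STAT5 target, had 1.35 to 28.4 CPM (median 2.12) with ruxolitinib and 5.65 to 55.6 CPM (median 20.9) with vehicle, at -2.30 ± 0.65 (edgeR adjusted p = 0.212), and its highest ruxolitinib value was again in 1143. Usp18, which restrains the interferon receptor, had a median of 2.41 CPM (0.838 to 7.25) with ruxolitinib and 9.70 CPM (3.88 to 31.5) with vehicle (-1.91 ± 0.44, edgeR adjusted p = 0.0844). By DESeq2 the adjusted p was 0.00904 for Socs2, 0.0218 for Cish and 0.00180 for Usp18, and by voom 0.143, 0.323 and 0.0292. Socs3, the STAT3 feedback gene, had 2.56 to 52.8 CPM (median 4.26) with ruxolitinib and 7.89 to 36.4 CPM (median 8.38) with vehicle. Its 2 highest values were in 864 (ruxolitinib) and 1137 (vehicle), the libraries of highest Saa1, and its log2 fold change was -0.36 with all libraries, -1.41 without 864 and 865 and -0.99 without 864 and 1137 (edgeR adjusted p = 0.873, 0.0834 and 0.0641). Of the 21 feedback genes 0 passed in edgeR, 3 were lower by DESeq2 and 1 by voom. At unadjusted p under 0.05, 5 were lower and 1 higher, beside 5.17% and 4.62% of all genes.

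Genes of the growth hormone axis did not pass in edgeR either. Igf1, the growth factor that the liver secretes under growth hormone, had 275 to 529 CPM (median 415) with ruxolitinib and 373 to 719 CPM (median 549) with vehicle, at -0.47 ± 0.10 (edgeR adjusted p = 0.0599, DESeq2 0.00111, voom 0.148). Igfals, which carries it in blood, had a median of 49.8 CPM (24.4 to 86.5) with ruxolitinib and 78.8 CPM (53.7 to 99.5) with vehicle (-0.64 ± 0.20, edgeR adjusted p = 0.279). The groups overlapped for both. Onecut1, a liver transcription factor, was at -2.14 ± 0.62 (edgeR adjusted p = 0.222), and Ghr, the growth hormone receptor, at -0.25 ± 0.16 (0.619). Of the 15 genes of the axis 0 passed in edgeR and 0 by voom, while 3 were lower by DESeq2. At unadjusted p under 0.05, 5 were lower and 1 higher (all genes 5.17% and 4.62%), and the list median was -0.08. It was -0.30 within the first batch, -0.09 within the second and 0.02 with library totals. It was -0.21 without 1137, -0.15 without 1140, -0.05 without 1139, -0.05 without 864 and 865, and -0.04 without 862. Without 1143, 3 of these genes and 2 feedback genes fell in edgeR. Without 1135, 1 gene of the axis fell, and without 864 or without 1140, 1 feedback gene. The axis and feedback lists share members, Cish among them, so their counts are not separate results.

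Of 31 male-type genes that follow STAT5, 2 fell, Egfr and Serpina1e. A negative fold change was seen in 30, beside 6458 of all 13554 genes tested. At unadjusted p under 0.05, 9 were lower and 0 higher, beside 5.17% and 4.62% of all genes. The median was -0.45, but it was -1.01 within the first batch and 0.05 within the second, and 14 of the 31 genes differed between batches at unadjusted p under 0.05, beside 15% of all genes. The level of the list in the first batch was 4.82 to 5.97 with ruxolitinib and 6.20 to 7.03 with vehicle, without overlap. In the second batch it was 5.90 to 7.29 with ruxolitinib and 6.80 to 7.19 with vehicle, with 1140 lowest. The hepatocyte identity level moved with it, at 8.73 (864), 8.84 (865), 9.13 (857), 9.23 (856) and 9.03 (1140) against 9.21 to 9.56 with vehicle, and its part in the result was not tested. Without 864 and 865 the male-type median was -0.20 and 1 gene fell. Of 29 female-type genes 0 passed in edgeR, 2 were higher by DESeq2 and 2 by voom, with 1 lower and 6 higher at unadjusted p under 0.05, and the median was 0.33 (0.17 within the first batch, 0.43 within the second and 0.21 without 1140). In edgeR 1 of them rose without 857, 1136, 1137 or 1140, and 1 without 864 and 1137.

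Egfr (chr11:16752203-16913907), the epidermal growth factor receptor of hepatocytes, fell, with the same sign in each batch. It had 79.9 to 228 CPM (median 168) with ruxolitinib and 234 to 479 CPM (median 372) with vehicle. No ruxolitinib library reached the lowest vehicle library, and the log2 fold change was -1.18 ± 0.18 (edgeR adjusted p = 0.00613), -1.01 within the first batch and -1.34 within the second. Of the 16 genes of the receptor family, its ligands and regulators, Egfr alone passed, while Erbb3 was at -0.19 and the ligand Tgfa at 0.22 ± 0.14 (0.597). Eps15 (chr4:109280275-109387816), an endocytic adaptor phosphorylated by the receptor, had 38.6 to 50.2 CPM (median 44.1) with ruxolitinib and 52.5 to 58.2 CPM (median 55.1) with vehicle. The groups of Eps15 did not overlap either, although its fold was small (-0.35 ± 0.05, edgeR adjusted p = 0.00613). Egfr and Eps15 kept their calls in all 17 fits that leave out 1 library.

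Serpina1e, an antitrypsin gene of mice, had 1943 to 9336 CPM (median 6233) with ruxolitinib and 5258 to 13645 CPM (median 8105) with vehicle. Its fold change was -1.27 within the first batch and -0.60 within the second, the groups did not overlap within the first batch, and reads can be shared with its paralogs. Further genes outside the interferon lists had small folds. St3gal1, a sialyltransferase, had 116 to 172 CPM (median 136) with ruxolitinib and 162 to 217 CPM (median 192) with vehicle (-0.45 ± 0.08, edgeR adjusted p = 0.0203). Slc6a6, the taurine transporter, had 117 to 178 CPM (median 133) with ruxolitinib and 162 to 235 CPM (median 208) with vehicle (-0.51 ± 0.10, 0.0236). Tor1aip1, of the nuclear envelope, overlaps Tor1aip2 on the other strand (-0.25) and was at -0.38 ± 0.07 (0.0203), and the scaffold gene Magi3 at -0.29 ± 0.06 (0.0357). The calls of St3gal1 and Tor1aip1 were lost without 856, that of Slc6a6 without any 1 of 7 libraries and that of Magi3 without any 1 of 14.

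Complement and clotting genes, made by hepatocytes, had more lower than higher members but none passed in edgeR. Of 30 complement genes 8 were lower and 0 higher at unadjusted p under 0.05, beside 5.17% and 4.62% of all genes. Their median was -0.21, and 0 passed. C4a had 81.9 to 192 CPM (median 146) with ruxolitinib and 138 to 296 CPM (median 218) with vehicle (-0.64 ± 0.16, edgeR adjusted p = 0.107). C8b, a part of the membrane attack complex, had 188 to 293 CPM (median 277) with ruxolitinib and 270 to 431 CPM (median 347) with vehicle (-0.45 ± 0.11, 0.110). Hc, which encodes complement C5 and is not among the 30 counted genes, was at -0.53 ± 0.12 (edgeR adjusted p = 0.0861, DESeq2 0.00281). By DESeq2 2 of the 30 counted genes passed, and by voom 0. The DESeq2 adjusted p was 0.0124 for C4a and 0.00922 for C8b. Without 864, 1 complement gene passed in edgeR and 15 were lower at unadjusted p under 0.05. Of 28 coagulation genes 5 were lower and 0 higher at unadjusted p under 0.05, and 0 passed in edgeR, DESeq2 or voom. Without 864, 1 coagulation gene passed in edgeR and 15 were lower at unadjusted p under 0.05, and without 864 and 865 these were 1 and 13.

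Acute phase genes ran in opposite directions in the batches. The 36 genes of the list had a median of -0.21 with 0 calls in edgeR (2 lower and 1 higher at unadjusted p under 0.05; 0 by DESeq2 and 0 by voom), but 0.88 within the first batch and -0.80 within the second. At unadjusted p under 0.05, 20 of the 36 differed between batches, beside 15% of all genes. In the first batch the level was 6.19 to 9.52 with ruxolitinib and 6.25 to 6.79 with vehicle, where 864 is the 9.52. In the second batch it was 6.31 to 6.70 with ruxolitinib and 6.88 to 8.40 with vehicle, without overlap, and 1137 is the 8.40. Without 864 the list gave 3 lower genes and a median of -0.615, and without 864 and 1137 it gave 2 lower genes and -0.25. The median was 0.30 without 1137 and 0.14 to 0.24 without any 1 ruxolitinib library of the second batch. Lcn2, lipocalin 2, had 5536 CPM in 864, with a ruxolitinib median of 7.99 CPM and a vehicle median of 15.7 CPM. The 6 neutrophil genes tested had a median of 0.42 over both batches, -1.16 without 864, -1.10 without 864 and 865, and -0.615 without 864 and 1137 (5 genes). With 1 library left out at a time it spanned -1.16 to 1.15. The median was 4.20 in the earlier batch, where 5 were tested, and -1.28 in the later one, and their part in the acute phase result was not tested.

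**Figure D4:**
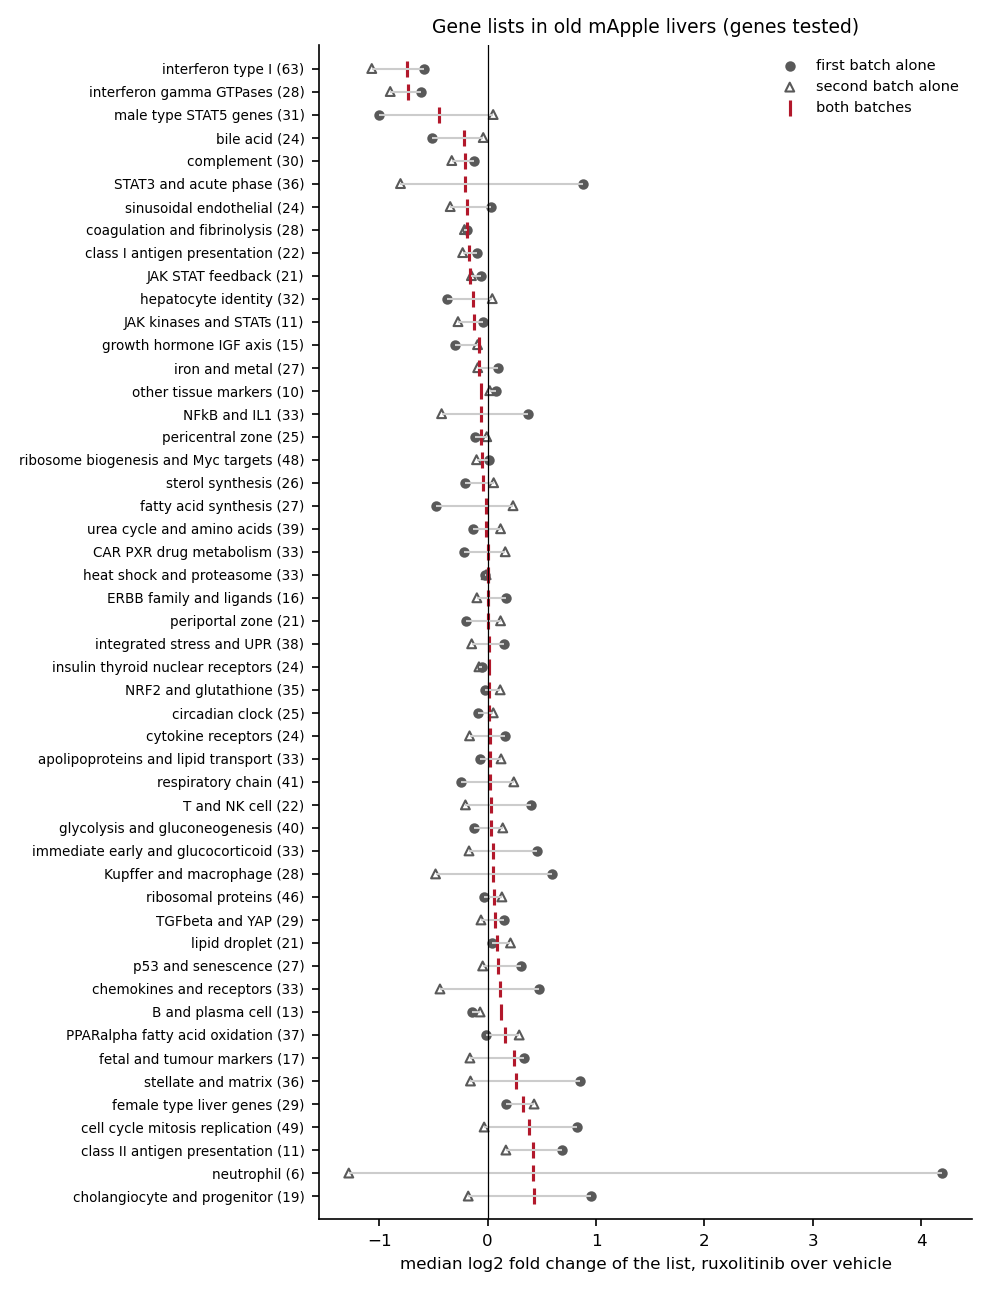
Each row is a gene list with the number of genes tested, sorted by its median log2 fold change over both batches (red bar), with the median in the first batch alone (circle) and the second batch alone (triangle). The 2 interferon lists lie left of 0 in both batches, at -0.74 and -0.73 over both, while the acute phase list runs from -0.80 in the second batch to 0.88 in the first and the neutrophil list from -1.28 to 4.20.

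On the higher side, the 1 gene past the threshold was D930048N14Rik, with 15.6 to 28.1 CPM (median 24.0) under ruxolitinib and 11.7 to 19.01 CPM (median 16.8) under vehicle (0.53 ± 0.11, edgeR adjusted p = 0.0407), whose call was lost in 13 of the 17 fits that leave out 1 library. It overlaps N4bp3 on the other strand (0.33). At an adjusted p under 0.1, 9 genes were higher and 70 lower, and the following higher genes were picked after their values were seen or as members of smallest p in their lists. Mfsd2a, a lysolipid transporter of the fasted liver, had 11.4 to 182 CPM (median 18.6) with ruxolitinib and 3.31 to 17.2 CPM (median 10.1) with vehicle, at 2.05 ± 0.45 (edgeR adjusted p = 0.0592, DESeq2 0.00191, voom 9.56e-04). Cyp17a1, a steroid hydroxylase, had 6.76 to 40.9 CPM (median 15.8) with ruxolitinib and 3.09 to 13.4 CPM (median 6.72) with vehicle, at 1.33 ± 0.29 (edgeR adjusted p = 0.0593, DESeq2 0.00111, voom 0.0279). Cyp2b10, a cytochrome P450 induced through the receptor CAR, had 31.6 to 421 CPM (median 93.0) with ruxolitinib and 9.74 to 88.5 CPM (median 52.6) with vehicle, at 1.68 ± 0.39 (edgeR adjusted p = 0.0822, DESeq2 0.00751, voom 0.00836). All 3 overlapped when batches were pooled, and Cyp2b10 is also on the female-type list. In the first batch the Mfsd2a median was 85.5 CPM with ruxolitinib and 11.9 CPM with vehicle, and the lowest ruxolitinib value of both batches was in 864 (11.4 CPM). The Cyp2b10 median in that batch was 286 CPM with ruxolitinib and 66.7 CPM with vehicle. Without 864 and 1137 Mfsd2a passed in edgeR (2.65, adjusted p = 2.16e-04), as did Cyp2b10 (2.34, 8.48e-04). Cyp17a1 did not pass without them (1.09, 0.139).

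Lipid droplet coat genes had positive folds that did not pass in edgeR with all libraries. Plin4 had 9.20 to 27.4 CPM (median 13.99) with ruxolitinib and 3.44 to 12.01 CPM (median 6.45) with vehicle, at 1.06 ± 0.26 (edgeR adjusted p = 0.122, DESeq2 0.00995, voom 0.0263). Without 864 and 1137 Plin4 passed in edgeR (1.34, adjusted p = 0.0245). Plin5 was at 0.51 ± 0.14 (edgeR adjusted p = 0.210) and Plin2, the main coat protein of hepatocyte droplets, at 0.53 ± 0.17 (0.296). Plin2 had 176 to 465 CPM (median 386) with ruxolitinib and 151 to 269 CPM (median 243) with vehicle, so the medians were apart and the ranges were not. Of the 21 droplet genes 0 passed in edgeR, 1 was higher by DESeq2 and 1 by voom. At unadjusted p under 0.05, 0 were lower and 4 higher (all genes 5.17% and 4.62%), and the median was 0.09. That median was 0.15 without 864 and 865 and 0.05 without 1137, and 1 droplet gene rose in edgeR without 1137. Fabp2, a fatty acid carrier, was at 0.91 ± 0.23 (0.134) and passed without 864 and 865 (1.08, edgeR adjusted p = 0.00366). Of 37 genes of fatty acid oxidation under PPAR alpha 0 passed in edgeR, DESeq2 or voom, with 0 lower and 5 higher at unadjusted p under 0.05, and 4 higher in edgeR without 864 and 1137. The median was 0.16 with all libraries, 0.25 without 864 and 865, 0.26 without 864 and 1137, and 0.09 without 856. The list includes Acot2 at 1.11 ± 0.36 (0.305) and Pdk4 at 0.66 ± 0.31 (0.495). Tat, an amino acid enzyme induced by glucocorticoids, had 1024 to 1856 CPM (median 1347) with ruxolitinib and 654 to 1391 CPM (median 891) with vehicle (0.59 ± 0.16, edgeR adjusted p = 0.179).

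**Figure D5:**
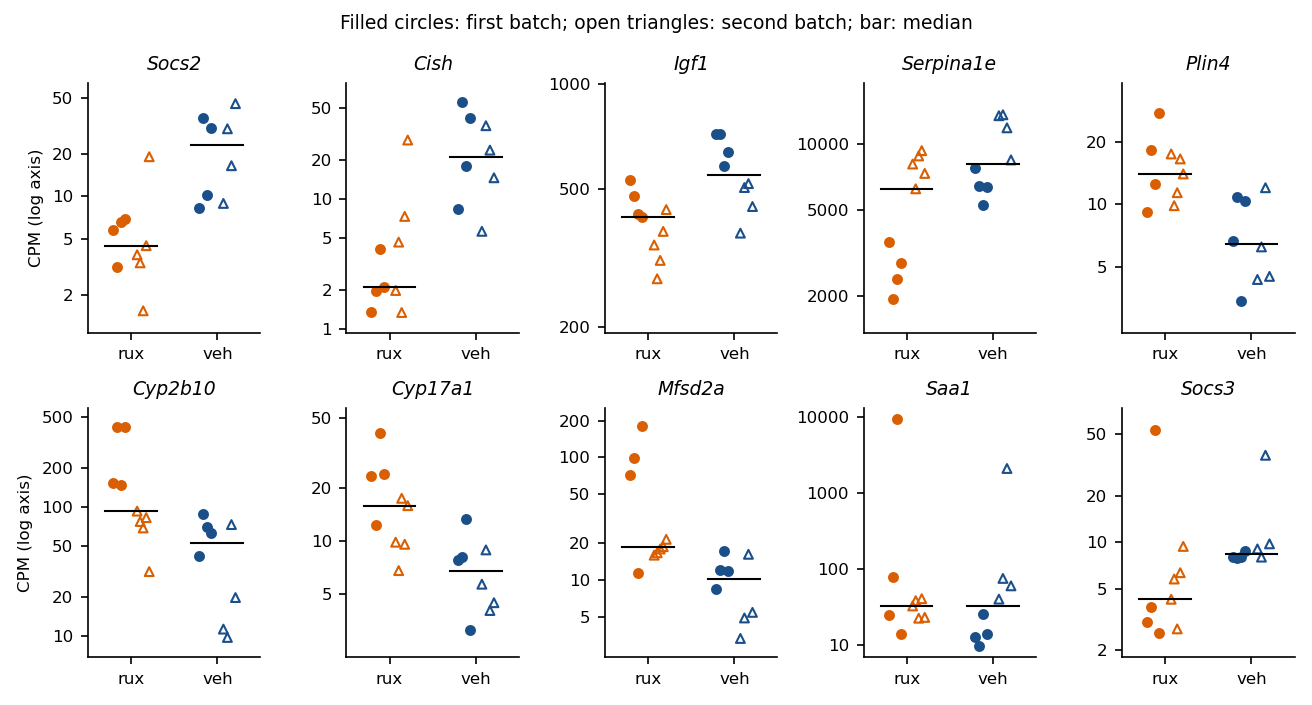
CPM on log axes of 10 genes, ruxolitinib left of vehicle, with filled circles for the first batch, open triangles for the second batch and a bar at the median. Among ruxolitinib libraries Socs2 and Cish are highest in 1143, Mfsd2a and Cyp2b10 are highest in ruxolitinib libraries of the first batch, and Saa1 and Socs3 are highest in 864 (ruxolitinib) and 1137 (vehicle).

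Other programmes gave no call in edgeR. Of 49 cell cycle genes 0 passed in edgeR, 1 was higher by DESeq2 and 0 by voom. At unadjusted p under 0.05, 1 was lower and 6 higher, beside 5.17% and 4.62% of all genes. The cell cycle median was 0.39, 0.83 within the first batch and -0.03 within the second. Without 864 and 865 it was 0.17, with 2 lower and 1 higher. Ribosome biogenesis and Myc targets (48 genes) had 0 calls by edgeR, DESeq2 or voom, with 4 lower and 5 higher at unadjusted p under 0.05 and a median of -0.05, and ribosomal proteins (46 genes) a median of 0.06. Myc itself had 2.34 to 19.2 CPM (median 7.59) with ruxolitinib and 2.94 to 57.6 CPM (median 15.5) with vehicle, and the ranges overlapped (-0.87 ± 0.37, edgeR adjusted p = 0.454). Bile acid synthesis (24 genes) had a median of -0.21, with 2 lower and 0 higher at unadjusted p under 0.05. Its rate-limiting enzyme Cyp7a1 had 37.9 to 246 CPM (median 52.0) with ruxolitinib and 35.7 to 204 CPM (median 102) with vehicle. The ranges of Cyp7a1 overlapped and it did not pass (-0.58, edgeR adjusted p = 0.555). Sterol synthesis, fatty acid synthesis and the urea cycle had medians of -0.05, -0.01 and -0.01. Xbp1, of the unfolded protein response, was at -0.43 ± 0.11 (edgeR adjusted p = 0.156, DESeq2 0.0302, voom 0.0413). In edgeR it passed without 864 and 865 (-0.52, adjusted p = 0.0381) and without 864 and 1137 (-0.49, 0.0332). Cholangiocyte, stellate and Kupffer marker lists had medians of 0.43, 0.26 and 0.05, with 0 genes past the threshold by edgeR, DESeq2 or voom. At unadjusted p under 0.05 the cholangiocyte list had 1 lower and 1 higher gene, the stellate list 0 and the Kupffer list 1 lower. The cholangiocyte median was 0.95 within the first batch and -0.18 within the second, the stellate median 0.85 and -0.16, and the Kupffer median 0.59 and -0.48. The effect differed between batches at unadjusted p under 0.05 for 11 of 19 cholangiocyte, 16 of 36 stellate and 15 of 28 Kupffer genes, beside 15% of all genes.

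Ruxolitinib in old Myc livers was set beside these values, with no library in common. There 69 genes fell (0.502% of 13749) and 6 rose (0.0436%). Of the 53 genes called in mApple livers, 29 were also called in the same direction in Myc livers, which is also 29 of the 75 called there. Of the 30 called genes on the interferon lists, 25 were called in Myc livers and all 30 had the same sign, with medians of -1.37 in mApple livers and -1.12 in Myc livers. Of the 23 outside those lists, 4 were called in Myc livers and 20 had the same sign, with medians of -0.50 in mApple livers and -0.27 in Myc livers. These 23 may still include interferon targets, Gm12250 among them, so the split is not one of interferon genes against all others. Socs2 and Cish, which missed the threshold with mApple, passed with Myc (-2.47, edgeR adjusted p = 1.41e-04, and -2.09, 0.0202), and Egfr was at -1.03 (0.00756) there. Eps15 was at 0.02 (0.938), St3gal1 at -0.07 (0.842), Slc6a6 at -0.09 (0.718) and Mfsd2a at 0.22 (0.880) in Myc livers. Among the lipid genes Plin2 was at -0.04, Plin5 at -0.22 and Fabp2 at -0.30 there. The test of a different response in mApple and Myc livers called 0 of 14046 genes in edgeR, with 735 at unadjusted p under 0.05 (5.23%). The unadjusted p of that difference was 0.0101 for Eps15, 0.00614 for Magi3 and 0.00438 for Rprd1b, and 0.00278 for Plin2, 0.00915 for Plin5 and 0.000647 for Fabp2. The adjusted p of Plin2, Plin5 and Fabp2 was 0.816 (edgeR), and all 6 genes were picked by their mApple values, which this test shares.

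Young mApple vehicle livers give a level for scale in the second batch, where ages differ and no test was made. The type I interferon level in that batch was 2.98 to 3.80 (median 3.06) in old ruxolitinib livers, 3.71 to 4.93 (median 3.77) in old vehicle livers and 3.57 to 3.93 (median 3.73) in the 6 young livers. Irf9 had 11.6 to 16.7 CPM in old ruxolitinib livers, 30.5 to 53.3 CPM in old vehicle livers and 29.1 to 40.9 CPM in young livers. Egfr had 103 to 207 CPM in old ruxolitinib livers, 339 to 479 CPM in old vehicle livers and 354 to 629 CPM in young livers. The young ranges of Irf9 and Egfr lay above those of old ruxolitinib livers and overlapped those of old vehicle livers.

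The drug effect was also compared between batches. The interaction of drug and batch called 0 of 13839 genes in edgeR, with 2069 at unadjusted p under 0.05 (15%), 40 by DESeq2 and 5 by voom. It called 485 genes without 1140 and 1 without 856. In the first batch alone 6 genes fell (0.0454%) and in the second alone 10 fell and 1 rose (0.0747% and 0.00747%). At unadjusted p under 0.05 and in the same direction, 50 of the 53 called genes passed in the earlier batch and 53 in the later one. At an adjusted p under 0.05 in edgeR these counts were 6 and 5. The 53 genes were picked from both batches together, so their agreement in each batch follows in part from that choice. Those called in every fit that leaves out 1 library number 18, among them Irf9, Irgm2, Rtp4, Mx2, Parp14, Adar, Ifit1, Ifit3, Egfr, Eps15 and Serpina1e. The count of 53 was 20 without 856, 28 without 1139 or 1142, 31 without 1141, 33 without 863 and 34 without 865.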

How the data were processed

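PolyA RNA from whole liver was sequenced as 2x75 reads on an AVITI instrument, per the labels' protocols. STAR alignment and HOMER counting on GRCm38 (mm10) come from the submitters' processing notes, without versions. The deposited table holds the authors' expected counts (estimated counts), which are raw exon counts without a strand setting, per the file headers, for 24537 genes in 58 libraries. Of its values 29.9% were not whole, and all were rounded before fitting.

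The 17 libraries were fitted with edgeR 4.0.16 (R 4.3.3), a quasi-likelihood model with TMM scaling, a batch term and filterByExpr (minimum count 10). Tests are two-sided, with Benjamini-Hochberg adjustment over all tested genes and a threshold of 0.05. The SE is the absolute log2 fold change divided by the square root of F. CPM used TMM factors over all 58 libraries. Old Myc livers and the interactions of drug with vector and with batch were fitted alike. Scripts were tested on simulated counts. Among 28 replicate pairs compared, 0 were identical (smallest chi-squared per degree of freedom 12.5). Promoters came from RefSeq's GRCm38.p6 table.

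The members and the 50 gene lists were chosen with earlier results of these data known. Genes are named by rule: all called genes (per-library values for the 12 of smallest p, the 5 largest decreases and the 5 largest increases with a mean log2 CPM of at least 1), up to 4 members of smallest p in each list, and a fixed set (Myc, the JAK and STAT genes, Socs1 to Socs3, Cish, Bcl6, Igf1, Egfr, Saa1, Hamp, Cyp7a1, Cyp2b9 and Alb). Mfsd2a, Hc, Igtp, Gbp5, Igfals, Ghr, Erbb3, Lcn2 and Pdk4 were picked after their values were seen. DESeq2 1.42.0, limma 3.58.1 voom with quality weights, RLE factors, library totals, no filter, no batch term and other sample sets were tried. Python 3.11.15, pandas 2.3.3, numpy 2.4.6 and matplotlib 3.10.9 made summaries and figures. The result of 1 gene is not reported here.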

Additional observations from a re-analysis of the deposited data

Results flagged for a closer look

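Of 76 groups of values examined (38 genes in 2 groups), 11 held a highest or lowest library far from the rest of its group. For separate groups chance alone gives about 1 in 20. These groups share libraries and pool both batches, so the count cannot be compared with that rate. Ruxolitinib library 864 stood apart with Saa1 at 9410 CPM, Socs3 at 52.8 CPM and Alb at 30100 CPM. Vehicle library 1137 stood apart with Saa1 at 2100 CPM and Socs3 at 36.4 CPM. Vehicle library 1136 was far above its group for Adar (53.3 CPM), Oas1b (5.59 CPM) and Parp14 (72.0 CPM). Among ruxolitinib libraries, Cish stood at 28.4 CPM in 1143, Cyp7a1 at 246 CPM in 865 and Gm12250 at 1.98 CPM in 857.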

How the results depend on the processing

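Each of the 53 calls kept its sign in every alternative fit, though these fits share libraries with the one that picked the genes. For the mApple comparison the count of calls was 142 with DESeq2 (112 lower, 30 higher; all 53 among them), 85 with voom (71 lower, 14 higher; 51 of the 53), 26 without a batch term (26 lower, 0 higher), 6 in the first batch alone (6 lower, 0 higher), 11 in the second (10 lower) and 1327 at unadjusted p (701 lower, 626 higher). With library totals in place of TMM it was 10 (9 lower), and the median of all genes moved to 0.11. A single fit of the 4 old groups gave 34 lower and 3 higher, all 58 libraries gave 9 higher, RLE factors 2 higher, no filter 0 higher and an adjusted p under 0.1 gave 9 higher. Leaving out 1 library gave 20 to 75 calls, 20 to 67 lower and 0 to 8 higher. Without 864 and 865 there were 46 calls (41 lower, 5 higher), 26 of them among the 53, and without 864 and 1137, added after the data were seen, 77 (60 lower, 17 higher), 45 of them among the 53. The Myc comparison gave 168 calls with DESeq2 (115 lower, 53 higher), 201 with voom (179 lower, 22 higher), 43 with library totals (40 lower, 3 higher) and 30 higher with no filter. The vector interaction had 735 at unadjusted p. The batch interaction had 40 with DESeq2, 5 with voom, 2069 at unadjusted p and 0 to 485 when leaving out 1 library. The causes were not tested. No paired analysis was possible because library numbers are unique and the groups share none.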
